A study of Homo sapiens with 24 samples.

Results

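This comparison asks whether glioblastoma cells that had become resistant to temozolomide answered the METTL3 inhibitor STM2457 differently from their parental cells. It covers 24 poly(A) RNA-seq libraries in 8 groups of 3. U87-R and LN229-R are temozolomide-resistant derivatives of U87 MG and LN229 and were kept in 50 µM temozolomide, a DNA-alkylating agent. The parental lines U87 MG and LN229 were grown without it, so resistance and the drug in the medium cannot be told apart. Each of the 4 lines received 50 µM STM2457 or the solvent DMSO for 96 h. The U87 family (U87-R and U87 MG) grew in EMEM and was prepared with a TruSeq stranded kit, and the LN229 family (LN229-R and LN229) grew in DMEM and was prepared with a Watchmaker kit, so family, medium and kit cannot be told apart either. The labels give no clone numbers and do not say that replicates were separate cultures; the p-values then measure the spread between these samples, which may be technical.

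For each gene the effect of STM2457 was the mean log2(normalized count + 1) of the STM2457 libraries minus that of the DMSO libraries within 1 line. The pooled difference was the mean effect in U87-R and LN229-R minus the mean effect in U87 MG and LN229, so a positive value means a higher effect in the resistant lines. Of 18110 genes found in all 4 deposited tables, 15709 had a mean of at least 10 normalized counts over the 24 columns and were tested, and 2401 were below it. Effects and differences are log2 values with a standard error (SE) or a 95% interval, and a gene was called where limma gave a Benjamini-Hochberg adjusted p under 0.05.

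METTL3 is the catalytic subunit of the complex that methylates adenosine in mRNA (m6A), METTL14 is its partner in RNA binding, and WTAP anchors both. Reader proteins of the YTH family bind m6A, and YTHDF2 directs bound transcripts to decay, while FTO and ALKBH5 can remove the mark. STM2457 occupies the methyl donor pocket of METTL3, so it blocks the enzyme without removing the protein or its transcript. Temozolomide methylates DNA. The enzyme MGMT reverses the most toxic of these lesions, and mismatch repair turns those that remain into breaks.

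The LN229 line names conflict between the deposited tables. The DMSO libraries also stand in tables of resistant against parental cells, and there each of the 6 LN229-family columns was closest to the like-numbered library of the other LN229 line, with an SD of the log2 ratio of 0.0579 to 0.0619, against 0.346 to 0.406 for the like-named library. All 6 U87-family columns were closest to the like-named library (0.0582 to 0.06). MGMT shows the conflict in 1 gene. It had 205, 194 and 188 normalized counts in the LN229-R DMSO libraries of the STM2457 tables and 0 in each LN229-R library of the other kind of table. The values below use the names of the STM2457 tables. If those names are the wrong ones, each difference in the LN229 family changes its sign and the pooled difference becomes 0.5 times the difference between the families.

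Library totals of normalized counts ranged between 21232924 and 25349361 for the U87 lines and between 24101385 and 28716587 for the LN229 lines, and replicates correlated at 0.97 to 0.988. The libraries numbered 2 of the LN229 family stood apart. The mean log2 level of the type I interferon response list was 10.86 in LN229-R STM2457 library 2, against 8.93 and 8.81 in the other two, and 10.95 in LN229 STM2457 library 2, against 8.66 and 8.31. The G2 and M phase list was lowest in the same libraries, at 8.51 in LN229-R and 9.33 in LN229, and LN229-R DMSO library 2 was also low at 10.3, against 11.2 and 11.25. Results are therefore given also without the 4 LN229-family libraries numbered 2, a choice made after these values were seen.

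**Figure D1:**
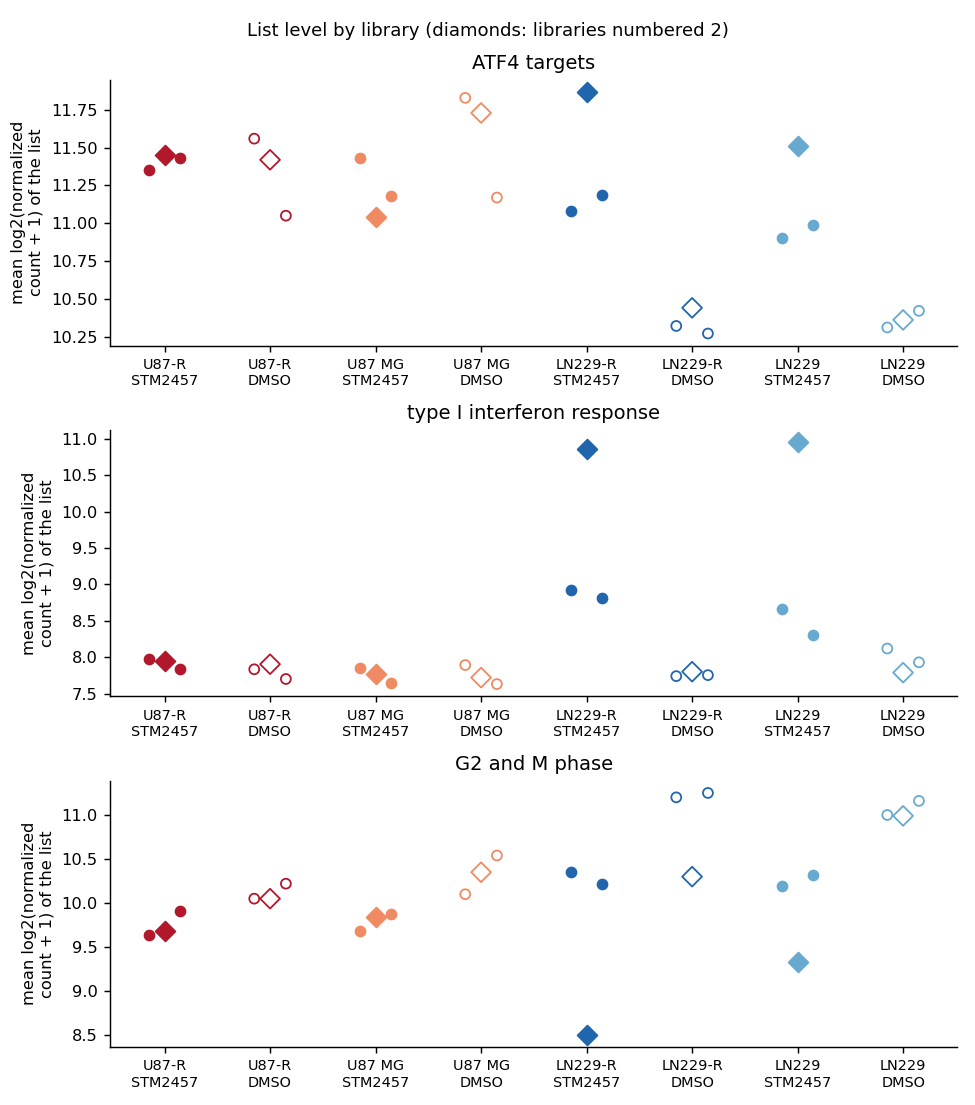
Mean log2(normalized count + 1) of 3 gene lists (vertical axes, which do not start at 0) in each of the 24 libraries, by group; filled symbols are STM2457, open ones DMSO, and diamonds mark libraries numbered 2. In both LN229 lines the STM2457 library numbered 2 lies highest for the type I interferon response (10.86 and 10.95) and lowest for G2 and M phase (8.51 and 9.33).

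STM2457 changed many transcripts in each line, and the resistant and parental line of a family changed mostly the same way. In U87-R 1751 genes rose and 1319 fell, and in U87 MG 1636 rose and 1147 fell, which is 19.5% and 17.7% of the genes tested. In LN229-R 3647 rose and 3135 fell (43.2%), and in LN229 3458 rose and 2878 fell (40.3%). Across genes, which are not independent replicates, the effects in U87-R and U87 MG correlated at 0.582 and those in LN229-R and LN229 at 0.859. Over the 12001 genes with a mean of at least 100 the values were 0.705 and 0.9. Between families the correlation was lower, at 0.327 for the resistant lines and 0.342 for the parental lines.

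Of the genes called in both lines of a family, almost none moved in opposite directions. For the U87 lines, 1128 rose in both, 669 fell in both, and 3 (AMIGO3, LINC01376 and LINC02104) went opposite ways. In the LN229 family 3007 rose in both, 2291 fell in both, and 4 (MAGI1, RPL9P25, RNA5-8SN2 and an unnamed locus) went opposite ways. In all 4 lines together 821 genes rose (5.23% of those tested) and 290 fell (1.85%). None of these 1111 genes was called in the pooled difference, and for 1058 of them its 95% interval lay within 1 log2 unit of 0. Of all genes tested 0.0127% were called and 75.3% had such an interval. The 1111 genes were chosen in the same fit, in a way that favours low SEs and like effects. Neither count therefore tests whether the response is shared.

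The pooled difference itself was called for 2 of 15709 genes (0.0127%). MEGF6 was higher in the resistant lines, at 2.36 (SE 0.39, limma adjusted p = 0.0408), and RNA5-8SN2, a copy of the 5.8S ribosomal RNA gene, was lower, at -6.81 (SE 0.38, limma adjusted p = 3.83e-10). At an unadjusted p under 0.05 there were 649 genes (4.13%), 336 higher (2.14%) and 313 lower (1.99%). Over the genes tested the median pooled difference was 0.003 and the median SE 0.187. The 95% interval lay within 1 log2 unit of 0 for 11827 genes (75.3%) and within 0.5 for 7429 (47.3%). This fit took the libraries as unpaired. With like-numbered libraries of a line fitted as pairs (a replicate block), limma called 4 genes: MEGF6, RNA5-8SN2, AMIGO3 and CYP26B1.

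**Figure D2:**
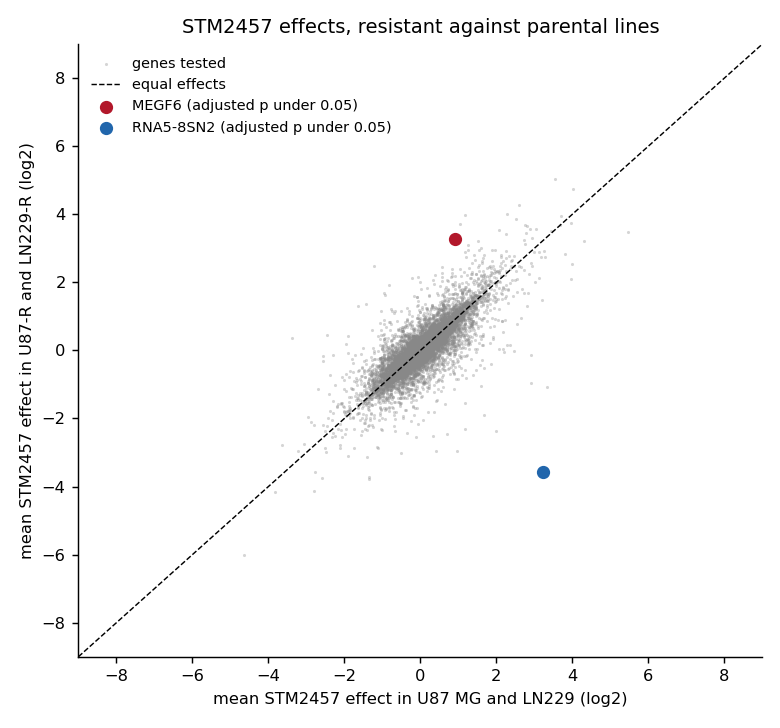
Mean STM2457 effect in the resistant lines (vertical axis, log2) against that in the parental lines (horizontal axis, log2) for 15709 genes (points); the dashed line marks equal effects. Most points follow the line, with MEGF6 above it (pooled difference 2.36) and RNA5-8SN2 below it (-6.81).

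Without the LN229-family libraries numbered 2, limma called 9 genes in the pooled difference (0.0573%). RNA5-8SN2 was among them, and MEGF6 was not (2.19, adjusted p = 0.12). SPOCK1, which encodes a matrix proteoglycan, was called at 1 (SE 0.124, limma adjusted p = 0.00088), MGST1, a membrane-bound glutathione transferase, at 1.1 (SE 0.185, limma adjusted p = 0.028), and CYP26B1, which degrades retinoic acid, at 1.46 (SE 0.254, limma adjusted p = 0.036). The other five were the pseudogenes FER1L4, GTF2H2B, LDHAP4 and RPL9P25 and the unnamed locus ENSG00000280800. With all 24 libraries the pooled difference was 0.904 for SPOCK1 (adjusted p = 0.99) and 0.64 for MGST1 (adjusted p = 1). These 9 genes are named because their values were seen.

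CYP26B1 had the like difference in both families, 1.48 in the U87 family and 1.49 in the LN229 family, but the levels behind it ran opposite ways. In the U87 family it had 304, 258 and 351 normalized counts in U87-R with STM2457, against 503, 566 and 608 with DMSO, and 65.9, 83.1 and 122 in U87 MG with STM2457, against 406, 365 and 636 with DMSO. Every STM2457 library was below the DMSO libraries of its line. In the LN229 family it had 459, 223 and 542 in LN229-R with STM2457, against 86.3, 28.5 and 89.8 with DMSO, and 576, 574 and 784 in LN229 with STM2457, against 285, 228 and 372 with DMSO. There every STM2457 library was above those of DMSO. With all 24 libraries its pooled difference was 1.49 (95% interval 0.73 to 2.25, limma adjusted p = 0.535).

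SPOCK1 and MGST1 differed in the LN229 family and hardly in the U87 family. SPOCK1 had 8700, 2810 and 7970 normalized counts in LN229-R with STM2457, against 1760, 1220 and 1830 with DMSO, and 6230, 3190 and 6350 in LN229 with STM2457, against 6520, 3630 and 4330 with DMSO. Library 2 was the lowest of each of these 4 groups. SPOCK1 in the U87 family stayed between 2610 and 3370 in all 12 libraries. MGST1 was near 0 in LN229-R (10.8, 8.44 and 9.13 with STM2457, and 0, 4.03 and 0 with DMSO) and had 216, 188 and 172 in LN229 with STM2457, against 109, 82.6 and 87.1 with DMSO. Its fitted difference in the LN229 family therefore depends on the pseudocount.

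MEGF6 encodes a large protein with multiple EGF-like domains and lies at chr1:3489920-3611495 on the minus strand (GRCh38), where the annotation overlaps it only with the microRNA gene MIR551A. It was outside the rule for named genes, with a mean of 69.6 normalized counts, and is named because it was called. In U87-R it had 111, 255 and 202 normalized counts with STM2457, against 11.3, 10.8 and 16.1 with DMSO. In U87 MG it had 98.2, 116 and 63.6 with STM2457, against 24.9, 41.4 and 28.7 with DMSO. Neither pair of groups overlapped, and the rise was called in both lines, at 3.73 in U87-R (SE 0.39, limma adjusted p = 1.21e-06) and 1.51 in U87 MG (SE 0.39, limma adjusted p = 0.00983).

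In LN229-R MEGF6 had 27.7, 18.5 and 13.4 normalized counts with STM2457, against 4.01, 0.994 and 1.31 with DMSO. In LN229 it had 149, 83.6 and 118 with STM2457, against 83.8, 76 and 115 with DMSO. The LN229-R groups did not overlap and the LN229 groups did. The effect was 2.82 in LN229-R (SE 0.39, limma adjusted p = 6.16e-06) and 0.33 in LN229 (SE 0.39, limma adjusted p = 0.523). The difference of effects was close to the same size in both families, with U87-R minus U87 MG at 2.23 (95% interval 1.08 to 3.37) and LN229-R minus LN229 at 2.48 (1.34 to 3.63), although neither was called alone (limma adjusted p = 0.311 and 0.165).

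The MEGF6 difference came with a low level in the resistant lines without STM2457, which were kept in 50 µM temozolomide. The DMSO mean was 12.7 ± 2.91 in U87-R and 31.7 ± 8.6 in U87 MG, and 2.1 ± 1.66 in LN229-R and 91.5 ± 20.5 in LN229 (SD, n = 3 each; the tables of the lines were normalized separately). After STM2457 the mean was 189 ± 73.1 in U87-R and 92.5 ± 26.5 in U87 MG, but 19.9 ± 7.22 in LN229-R and 117 ± 32.8 in LN229. Without single libraries the pooled difference stayed between 2.23 and 2.56, and the call was lost in 17 of 24 such fits (adjusted p 0.00621 to 0.141). It was also lost with a pseudocount of 5 (1.73, limma adjusted p = 0.14) and with a mean of at least 50 (limma adjusted p = 0.0559).

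**Figure D3:**
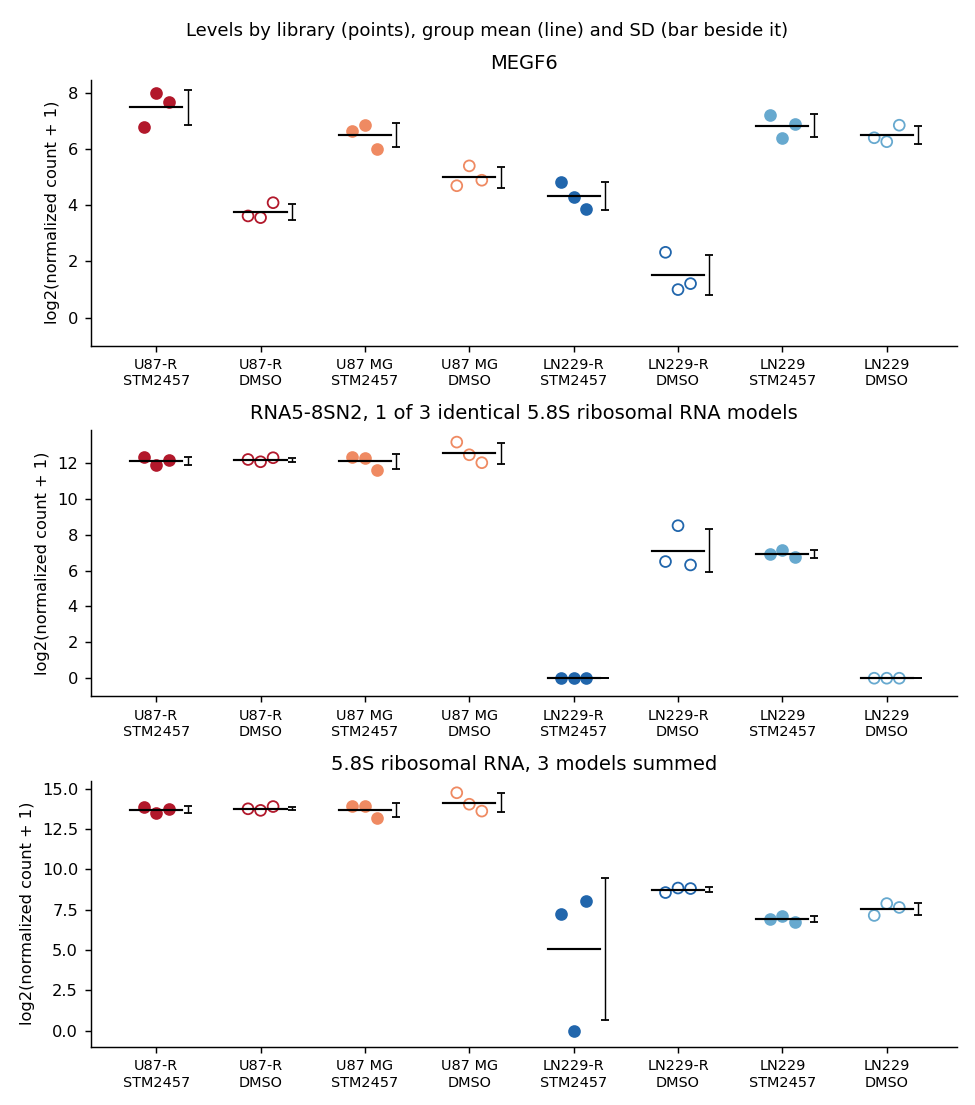
log2(normalized count + 1) of MEGF6, of RNA5-8SN2 and of the summed 5.8S ribosomal RNA models in each library (points), with the group mean (line) and SD (bar), n = 3 per group. MEGF6 lies lowest in the DMSO libraries of each resistant line (means 12.7 and 2.1 normalized counts), RNA5-8SN2 is at 0 in LN229-R with STM2457 and in LN229 with DMSO, and the summed models are at 0 in 1 library.

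RNA5-8SN2 is 1 of 3 gene models of the 5.8S ribosomal RNA that were in all the tables. It lies at chr21:8212572-8212724, RNA5-8SN1 at chr21:8439823-8439975 and RNA5-8SN3 at chr21:8395607-8395759, all on the plus strand (GRCh38). In the GENCODE transcripts the 3 models have the same 153 bases, shown here because reads of 1 model cannot be told from those of the others.
RNA5-8SN2: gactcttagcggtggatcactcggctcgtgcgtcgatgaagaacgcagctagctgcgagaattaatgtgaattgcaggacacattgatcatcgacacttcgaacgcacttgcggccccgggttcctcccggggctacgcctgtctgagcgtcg

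RNA5-8SN2 was listed at 0 in all 3 LN229-R libraries with STM2457, against 89.4, 360 and 78.4 normalized counts with DMSO. In LN229 it had 119, 138 and 105 with STM2457 and was listed at 0 in all 3 DMSO libraries. The pattern is thus opposite in these lines, and the fitted difference of -14 in the LN229 family (limma adjusted p = 1.91e-13) depends on the pseudocount and bounds nothing. RNA5-8SN2 had 5070, 3770 and 4580 in U87-R with STM2457, against 4660, 4270 and 4980 with DMSO, and 5220, 4990 and 3110 in U87 MG with STM2457, against 9110, 5590 and 4110 with DMSO. These U87 groups overlapped in U87-R and in U87 MG, and the difference was 0.40 (95% interval -0.71 to 1.51).

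The sum over the 3 identical models did not carry the call. In LN229-R the sum was 146, 0 and 256 normalized counts with STM2457, against 376, 457 and 447 with DMSO. In LN229 it was 119, 138 and 105 with STM2457, against 140, 234 and 198 with DMSO. The STM2457 libraries were below the DMSO libraries in both lines. With the models summed, a fit added after these values were seen, the pooled difference was -1.32 (SE 1.13, limma adjusted p = 1), no gene was called in it, and MEGF6 had an adjusted p of 0.0813.

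Within the U87 family 3 genes had a lower STM2457 effect in U87-R than in U87 MG and none a higher one (0.0191% of the genes tested; 820 genes, or 5.22%, at an unadjusted p under 0.05, 2.46% higher and 2.76% lower). AMIGO3 encodes an adhesion protein with immunoglobulin and leucine-rich domains. It had 37.5, 0 and 0 normalized counts in U87-R with STM2457, against 93.3, 12.9 and 17.2 with DMSO, and 64.4, 115 and 128 in U87 MG with STM2457, against 0, 0 and 6.25 with DMSO. Its difference of -8.77 (SE 1.39, limma adjusted p = 0.023) rests on libraries at 0. The gene (chr3:49716834-49719695, minus strand) shares 2852 of its bases on the same strand with GMPPB, so reads could be split between them. In the LN229 family AMIGO3 had 240 to 298 with STM2457 and 104 to 200 with DMSO over both lines.

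ANKRD45, an ankyrin repeat gene, and ADAMTS15, a secreted metalloproteinase of the extracellular matrix, were outside the rule for named genes and are named because they were called. ANKRD45 was listed at 0 in the 3 U87-R libraries with STM2457, against 9.34, 3.97 and 4.17 normalized counts with DMSO, and had 24.2, 13.3 and 14.8 in U87 MG with STM2457, against 10.2, 5.73 and 13.9 with DMSO. Its difference was -3.46 (SE 0.54, limma adjusted p = 0.023). ANKRD45 shares 60277 of its bases on the same strand with the gene model AL139142.2, so reads could be split between them. ADAMTS15 had 1.98, 3.19 and 0.972 in U87-R with STM2457, against 11, 15.9 and 15 with DMSO, while in U87 MG it had 1.02, 0.933 and 0.794 with STM2457, against 1.2, 0 and 0 with DMSO. Its difference was -2.90 (SE 0.48, limma adjusted p = 0.0261). In LN229-R it had 197, 160 and 227 with STM2457, against 154, 93.7 and 141 with DMSO, and the difference in the LN229 family was 0.07 (95% interval -0.93 to 1.06). In a fit of the U87 family alone limma called none of these 3 genes.

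Within the LN229 family RNA5-8SN2 was the 1 gene called with all libraries taken as unpaired (0.00637%). There were 508 genes (3.23%) at an unadjusted p under 0.05. With like-numbered libraries fitted as pairs, limma called 30 genes, among them MEGF6, MYC, NUPR1, CHI3L1, NOTCH3, CEBPD, CYP26B1 and SPOCK1. Unpaired and without the libraries numbered 2 there were 30 (0.191%), 17 with a higher effect in LN229-R and 13 with a lower one. CEBPD, a transcription factor of inflammation, was among the higher ones at 1.7 (SE 0.329, limma adjusted p = 0.041), as were the NRF2 target genes SRXN1 at 0.747 (SE 0.135, limma adjusted p = 0.025) and OSGIN1 at 1.25 (SE 0.217, limma adjusted p = 0.019). The receptor NOTCH3 was lower at -1.99 (SE 0.318, limma adjusted p = 0.0092), and so was ASS1, which makes argininosuccinate, at -2.05 (SE 0.288, limma adjusted p = 0.0023). These genes are named because their values were seen, and as labelled they belong to LN229-R against LN229, whose names conflict.

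The level of SRXN1 shows what the libraries numbered 2 did. It had 6000, 8080 and 6550 normalized counts in LN229-R with STM2457, against 1500, 1570 and 1480 with DMSO, and 4380, 12300 and 4530 in LN229 with STM2457, against 1770, 1640 and 1780 with DMSO. Library 2 was the highest in each STM2457 group, and further above the others in LN229. OSGIN1 had 2960, 2500 and 3590 in LN229-R and 1410, 3740 and 1640 in LN229 with STM2457. Their differences with all libraries were 0.32 for SRXN1 and 0.72 for OSGIN1.

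The difference between the families, that is the difference of effects in the U87 family minus that in the LN229 family, was called for RNA5-8SN2 alone (14.4, limma adjusted p = 1.23e-10; 0.00637% of the genes, with 600 or 3.82% at an unadjusted p under 0.05, 1.81% higher and 2.01% lower). Without the LN229-family libraries numbered 2 there were 12 genes (0.0764%). Across genes the differences in the 2 families correlated at 0.017. Under exchanged LN229 names the pooled difference is 0.5 times this quantity, and limma then called RNA5-8SN2 at 7.21 and no other gene, with MEGF6 at -0.13 and CYP26B1 at -0.005. MEGF6 in the U87 family does not depend on the LN229 names.

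Among the m6A writers the response of resistant and parental lines differed by little where the intervals are narrow. METTL3, the target, had 781, 889 and 989 normalized counts in U87-R with STM2457, against 736, 776 and 884 with DMSO, and 610, 686 and 741 in U87 MG with STM2457, against 648, 636 and 639 with DMSO. It had 1190, 1000 and 1190 in LN229-R with STM2457, against 1240, 1240 and 1280 with DMSO, and 1150, 1010 and 1220 in LN229 with STM2457, against 1190, 1080 and 1200 with DMSO. Its transcript was not called in any of the 4 lines (effects -0.16 to 0.15), and its pooled difference was -0.02 (95% interval -0.25 to 0.20). That of METTL14 was -0.13 (-0.60 to 0.35) and that of WTAP 0.13 (-0.11 to 0.38).

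WTAP rose with STM2457 by 0.62 in U87-R, 0.34 in U87 MG, 0.66 in LN229-R and 0.67 in LN229. Of the 11 writer genes tested none was called in the pooled difference, and the intervals of all 11 lay within 1 log2 unit of 0. The lowest unadjusted p was that of CBLL1, a ubiquitin ligase of the complex (0.31, unadjusted p = 0.033). Of 12 readers and erasers tested none was called, and the intervals of all 12 also lay within 1. YTHDF2 had effects of 0.79, 0.74, 0.76 and 0.86 in U87-R, U87 MG, LN229-R and LN229, and a pooled difference of -0.03 (-0.18 to 0.12). For FTO the difference was 0.02 (-0.20 to 0.24) and for ALKBH5 -0.09 (-0.35 to 0.16).

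In 44 gene lists with 884 genes tested, no member was called in the pooled difference, and in each list the lowest limma adjusted p was 0.756 (TIMP3) or above. Over all genes tested 0.0127% were called, so no call in a list, here or below, is near that share. It is not a result about the list. The list medians ran from -0.439 (4 astrocyte markers) to 0.31 (ATF4 targets), beside 0.003 over all genes tested. These medians describe the lists and were not tested.

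**Figure D4:**
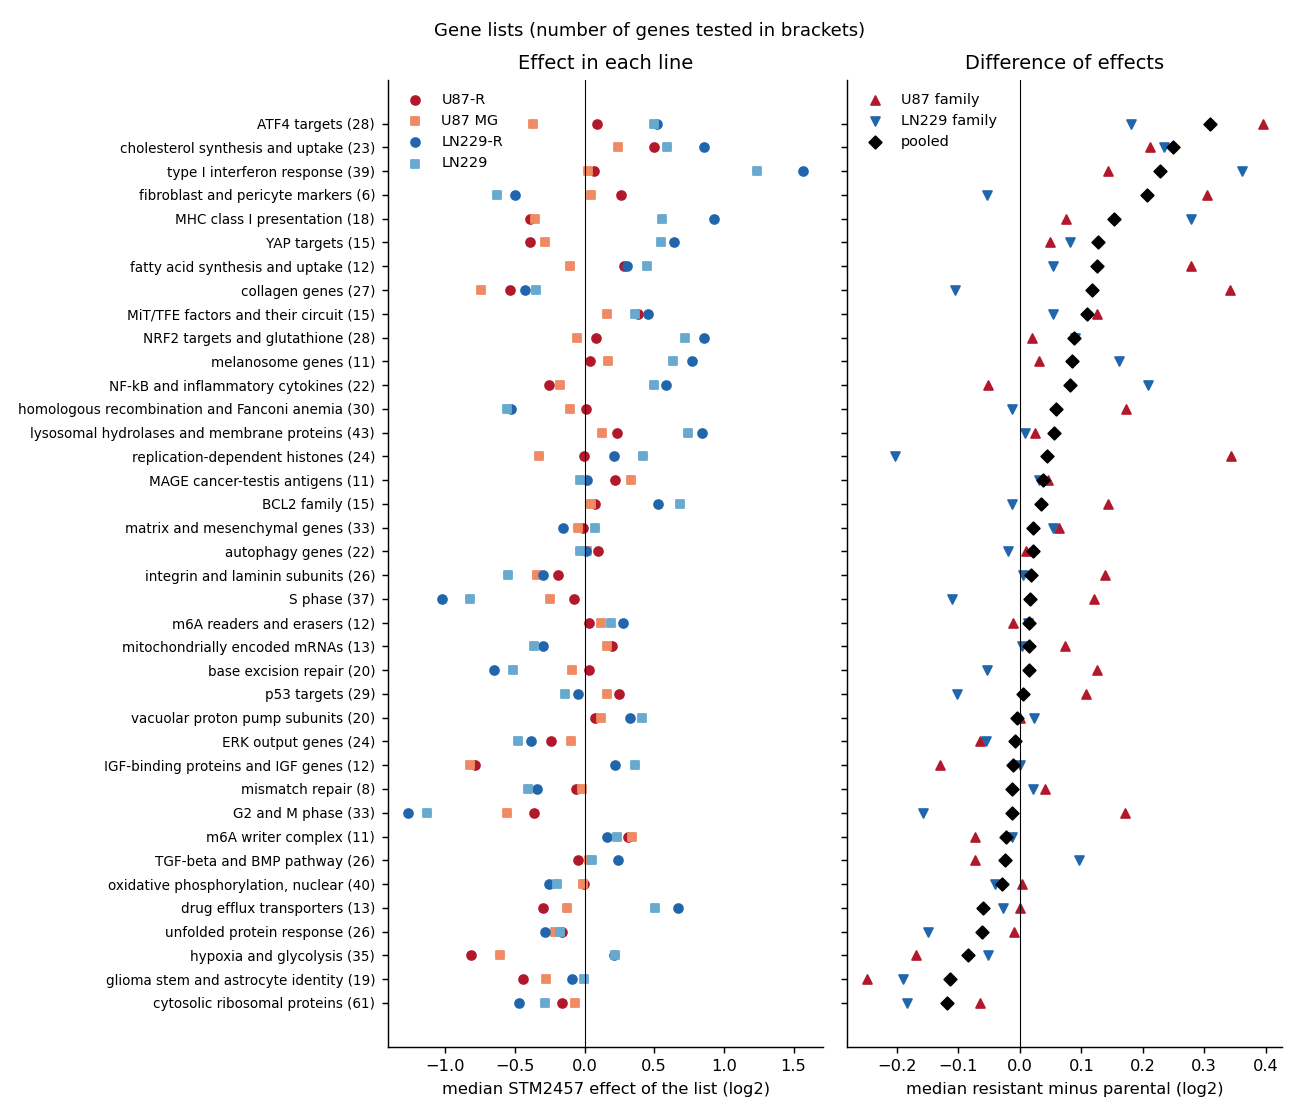
Median STM2457 effect in each line (left, log2) and median difference of effects, resistant minus parental, in the U87 family, the LN229 family and pooled (right, log2) for the 38 lists with at least 5 genes tested, numbers in brackets. The median effects spread widely between lists and lines, from -1.27 to 1.57, while the pooled medians stay between -0.118 and 0.31, with ATF4 targets at the top.

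ATF4 is the transcription factor of the integrated stress response. It raises genes of amino acid synthesis, amino acid transport and tRNA charging when translation initiation is held back. Of the 30 genes on the list 28 were tested, and 21 of them (75%) had a higher effect in the resistant line of both families, which 25.6% of all genes tested had; none had a lower effect in both. The median effect was 0.09 in U87-R and -0.37 in U87 MG, and 0.52 in LN229-R and 0.50 in LN229. It was 0.283 in LN229-R and 0.335 in LN229 without the LN229-family libraries numbered 2, with 10 members rising in each. In U87-R 3 members rose and 4 fell, and in U87 MG 1 rose and 8 fell, where 11.1% and 8.4% of all genes rose and fell in U87-R and 10.4% and 7.3% in U87 MG. In LN229-R 14 rose and 3 fell, and in LN229 12 rose and 4 fell, beside 23.2% and 20% of all genes in LN229-R and 22% and 18.3% in LN229.

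At an unadjusted p under 0.05 there were 7 members with a higher effect in the resistant lines (25%, against 2.14% of all genes), and none was called. PYCR1, the last enzyme of proline synthesis, fell in all 4 lines, and its pooled difference was 0.31 (95% interval 0.10 to 0.51, limma adjusted p = 0.968). It had 1350, 1590 and 1670 normalized counts in U87-R with STM2457, against 1910, 1910 and 2060 with DMSO, and 1400, 1300 and 1390 in U87 MG with STM2457, against 2470, 2230 and 2160 with DMSO. In LN229-R it had 960, 1180 and 1070 with STM2457, against 2060, 2300 and 2190 with DMSO, and in LN229 988, 899 and 1100, against 2250, 2470 and 2380. Each STM2457 group lay below its DMSO group in every line.

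SHMT2, which makes glycine in mitochondria, differed by 0.31 (0.04 to 0.58) and PSPH, the last enzyme of serine synthesis, by 0.37 (0.04 to 0.70). PHGDH, the first enzyme of that pathway, differed by 0.47 (0.01 to 0.92), and the tRNA synthetase genes MARS1 and CARS1 by 0.45 (0.03 to 0.87) and 0.33 (0.01 to 0.65). NUPR1, a small stress-induced chromatin protein, differed most, at 1.69 (0.52 to 2.86, limma adjusted p = 0.968). It had 548, 1810 and 876 normalized counts in LN229-R with STM2457, against 2.14, 10.5 and 0.558 with DMSO, and 840, 864 and 849 in LN229 with STM2457, against 19, 14.4 and 43.4 with DMSO. The STM2457 groups overlapped, and the DMSO groups did not.

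**Figure D5:**
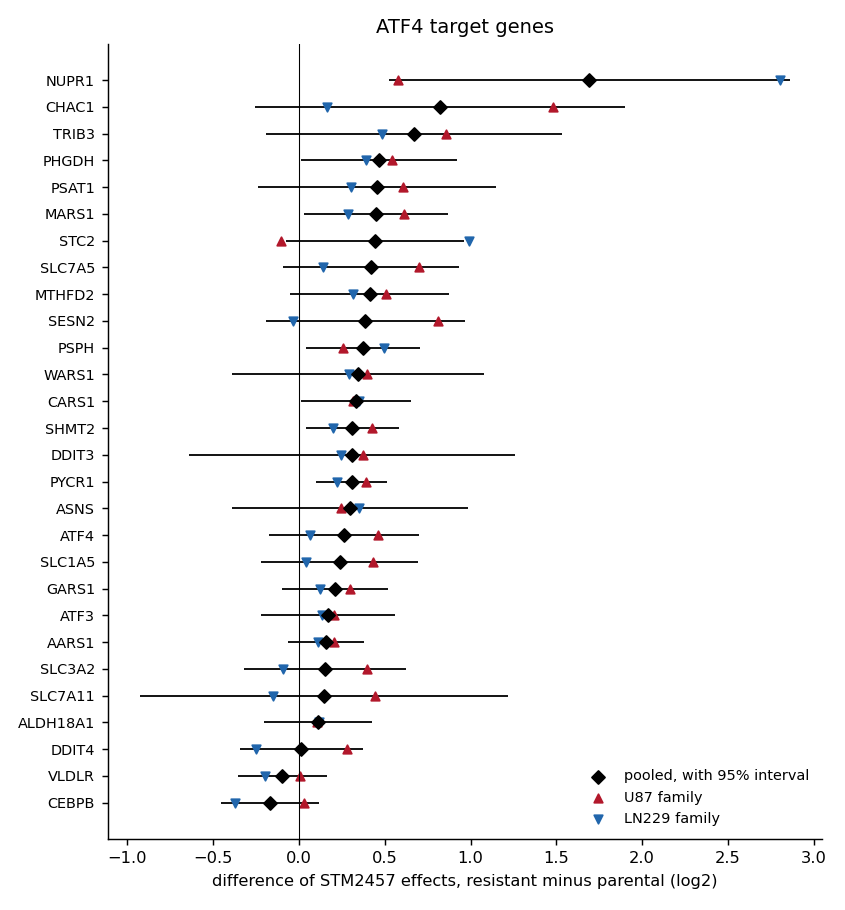
Difference of STM2457 effects, resistant minus parental (horizontal axis, log2), for the 28 ATF4 targets tested: pooled with its 95% interval (diamonds and lines), and in the U87 family and the LN229 family (triangles). PYCR1, NUPR1, SHMT2, PSPH, PHGDH, MARS1 and CARS1 have intervals above 0, and no member was called after adjustment over all genes.

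The level of the ATF4 targets list also varied between libraries of 1 group. The mean log2 level was 11.35, 11.45 and 11.43 in U87-R with STM2457, against 11.56, 11.42 and 11.05 with DMSO, and 11.43, 11.04 and 11.18 in U87 MG with STM2457, against 11.83, 11.73 and 11.17 with DMSO. The DMSO libraries numbered 3 were the lowest in both U87 lines. Without single libraries the median difference ran from 0.202 to 0.428, without the LN229-family libraries numbered 2 it was 0.288, and with exchanged LN229 names 0.098. The median in the U87 family alone, which does not depend on those names, was 0.395.

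Some promoters of the list carry the CCAAT-enhancer binding protein and ATF response element. The letters TGATGNAA, on either strand, were searched in 300 bases around the start (250 before it and 50 after), from RefSeq on GRCh38.p14, for the 23 members with a promoter in that table. They were found in 7 (30.4%), against 1.71% of the 11248 promoters of genes tested. The match is a description of these letters. Its members were AARS1, ASNS, ATF3, CARS1, CHAC1, MARS1 and SLC3A2, with a median pooled difference of 0.297, beside 0.326 for the 16 without it. The promoters of MARS1 and CARS1 are shown because both genes had an interval above 0, and that of CHAC1, a glutathione-degrading enzyme whose pooled difference was 0.82 (-0.26 to 1.90), because it had the next largest difference after NUPR1; capitals mark the match. They lie at chr12:57487818-57488117 on the plus strand, chr11:3057374-3057673 on the minus strand and chr15:40953221-40953520 on the plus strand.
MARS1: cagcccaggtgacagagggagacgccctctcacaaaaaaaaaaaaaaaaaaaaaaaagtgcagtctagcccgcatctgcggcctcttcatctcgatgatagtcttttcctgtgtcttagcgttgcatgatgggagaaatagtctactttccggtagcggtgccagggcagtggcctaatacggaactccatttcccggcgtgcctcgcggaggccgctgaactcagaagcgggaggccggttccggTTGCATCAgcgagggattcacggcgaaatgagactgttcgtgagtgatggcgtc
CARS1: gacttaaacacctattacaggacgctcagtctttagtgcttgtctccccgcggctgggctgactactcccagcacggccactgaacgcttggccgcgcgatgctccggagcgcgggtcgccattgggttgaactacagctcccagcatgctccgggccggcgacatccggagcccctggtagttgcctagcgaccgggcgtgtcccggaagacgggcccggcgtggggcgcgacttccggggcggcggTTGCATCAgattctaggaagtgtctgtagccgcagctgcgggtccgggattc
CHAC1: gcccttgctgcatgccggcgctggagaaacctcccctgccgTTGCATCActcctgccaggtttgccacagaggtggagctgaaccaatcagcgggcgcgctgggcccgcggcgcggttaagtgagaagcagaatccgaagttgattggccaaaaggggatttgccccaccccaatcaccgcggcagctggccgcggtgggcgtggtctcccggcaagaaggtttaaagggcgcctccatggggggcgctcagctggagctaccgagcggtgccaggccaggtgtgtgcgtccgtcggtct

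CHAC1 had 490, 563 and 730 normalized counts in U87-R with STM2457, against 572, 470 and 209 with DMSO, and 315, 197 and 289 in U87 MG with STM2457, against 615, 635 and 280 with DMSO. In LN229-R it had 202, 676 and 220 with STM2457, against 46.2, 130 and 52.2 with DMSO, and in LN229 127, 427 and 130, against 31.1, 61.2 and 54. Library 2 was the highest of every LN229-family group. CARS1 had 3550, 4000 and 3940 in U87-R with STM2457, against 3390, 3390 and 3050 with DMSO, and 3960, 3140 and 3390 in U87 MG with STM2457, against 4280, 4110 and 2910 with DMSO; only in U87-R did these groups not overlap.

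Genes of cholesterol synthesis and uptake had a higher effect in the resistant line of both families in 20 of 23 members (87%, against 25.6% of all genes), and none was called. In U87-R 12 rose and none fell, and in U87 MG 3 rose and 1 fell; in LN229-R 18 rose and in LN229 12, with none falling. Of all genes 11.1% rose in U87-R, 10.4% in U87 MG, 23.2% in LN229-R and 22% in LN229, so that the count in U87 MG is near the share over all genes. The median effects were 0.50 and 0.24 in U87-R and U87 MG and 0.86 and 0.59 in LN229-R and LN229. FDFT1, the first committed enzyme of sterol synthesis, differed by 0.29 (95% interval 0.05 to 0.53) and FDPS, which makes farnesyl diphosphate, by 0.39 (0.03 to 0.75).

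Without the LN229-family libraries numbered 2 the cholesterol median was 0.339, with 8 members higher at an unadjusted p under 0.05 in place of 3. With exchanged LN229 names it was -0.011. Among the 12 genes of fatty acid synthesis and uptake the median was 0.126 and none was called; the desaturase gene FADS2 differed by 0.76 (-0.19 to 1.71).

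No gene of lysosomes or pigment granules was called in the pooled difference. Of 43 lysosomal hydrolase and membrane protein genes 15 rose in U87-R and 11 in U87 MG, where 11.1% and 10.4% of all genes rose, and 32 rose in LN229-R and 30 in LN229, where 23.2% and 22% of all genes rose. The median pooled difference was 0.056, and the intervals of 41 lay within 1. GPNMB, a glycoprotein of melanosomes and lysosomes, had 64300, 44900 and 65500 normalized counts in LN229-R with STM2457, against 1520, 1080 and 1730 with DMSO, and 53800, 22700 and 47300 in LN229 with STM2457, against 2580, 920 and 3500 with DMSO. It rose by 5.34 and 4.25 there, while in U87-R and U87 MG its effects were 1.80 and 1.81 and not called. Its pooled difference was 0.54, with a wide interval of -0.91 to 1.98.

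Of 11 melanosome genes the intervals of 7 lay within 1, and 2 (18.2%, against 2.14% of all genes) were higher in the resistant lines at an unadjusted p under 0.05. The pigment synthesis gene DCT had 3330, 3530 and 2060 normalized counts in LN229-R with STM2457, against 19.1, 8.35 and 7.15 with DMSO, and 6730, 2020 and 7110 in LN229 with STM2457, against 39.3, 27.5 and 57.4 with DMSO. Its pooled difference was 1.5 (95% interval 0.40 to 2.60, limma adjusted p = 1). In the U87 family DCT stayed between 0 and 11.1. The difference there was 1.85 (0.29 to 3.41), which at so low a level depends on the pseudocount. In the LN229 family the difference was 1.15 (-0.41 to 2.71), and 0.52 without the libraries numbered 2. MLPH, an adaptor of melanosome transport, differed by 0.59 (0.12 to 1.06). Of 15 genes of the MiT/TFE factors and their Rag-folliculin circuit none was called, and the intervals of all 15 lay within 1; FLCN differed by 0.30 (-0.05 to 0.65) and RRAGA by -0.21 (-0.42 to -0.01). The 20 proton pump genes had a median of -0.004 and the 22 autophagy genes one of 0.021.

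Interferon genes rose in the LN229 lines and not in the U87 lines, with no called difference between resistant and parental cells. Of 39 type I interferon response genes 26 rose in LN229-R and 21 in LN229, none rose in U87-R or U87 MG, and 1 fell in U87 MG. Of all genes 23.2% rose in LN229-R, 22% in LN229, 11.1% in U87-R and 10.4% in U87 MG. The median pooled difference was 0.228, and the intervals of 14 genes lay within 1. OAS2, a sensor of double-stranded RNA, differed by 1.12 (SE 1.02). Without those libraries 24 and 16 genes rose in LN229-R and LN229, the median was 0.313 and 10 genes were higher at an unadjusted p under 0.05; with exchanged LN229 names the median was -0.098.

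Of 18 genes of MHC class I presentation 13 rose in LN229-R and 10 in LN229, beside 23.2% and 22% of all genes. None rose in the U87 lines, where 2 fell in U87-R and 5 in U87 MG, with median effects of -0.395 and -0.358. Of all genes 8.4% fell in U87-R and 7.3% in U87 MG, so that the count in U87-R is near the share over all genes. The median pooled difference was 0.153, beside medians of 0.0748 in the U87 family and 0.278 in the LN229 family. With exchanged LN229 names the pooled median was -0.156. The peptidase gene ERAP2 differed by 0.39 (0.08 to 0.70) and NLRC5, the transcriptional activator of class I genes, by 0.47 (SE 0.22). Among 22 inflammatory genes the cytokine IL24 differed by -1.42 (-2.61 to -0.24). It had 258, 421 and 139 normalized counts in U87-R with STM2457, against 86.1, 91.2 and 27.7 with DMSO, and 279, 861 and 874 in U87 MG with STM2457, against 78.2, 137 and 89.1 with DMSO. In LN229-R it had 23.4, 35.4 and 24.8 with STM2457, against 1.13, 2.33 and 4.27 with DMSO, and in LN229 42.9, 221 and 108, against 2.29, 1.4 and 0.9. The STM2457 libraries were above the DMSO libraries in each of the 4 lines.

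Cell cycle genes fell most in the LN229 lines. Of 33 G2 and M phase genes 30 fell in LN229-R and 29 in LN229, while 20% of all genes fell in LN229-R and 18.3% in LN229. None was called in U87-R or U87 MG, where the median effects were -0.366 and -0.555. The mean list level there did not overlap, at 9.64 to 9.91 with STM2457 against 10 to 10.2 with DMSO in U87-R. In U87 MG it was 9.68 to 9.88 against 10.1 to 10.5. All 4 lines share 1 spread estimate. Without the LN229-family libraries numbered 2 the pooled SE of ESPL1 was 0.126 in place of 0.361. That of AURKB was 0.251 in place of 0.358, so the missing calls do not show unchanged genes. The median pooled difference of the list was -0.013, and the intervals of 30 members lay within 1. Of 37 S phase genes 25 fell in LN229-R and 17 in LN229, with a median difference of 0.016. The p53 target CDKN1A, an inhibitor of cyclin-dependent kinases, differed by -0.07 (95% interval -0.41 to 0.27). GDF15, a secreted stress protein on the p53 list, differed by 0.98 (0.16 to 1.80, limma adjusted p = 1). It had 2940, 3610 and 2700 normalized counts in U87-R with STM2457, against 1190, 961 and 405 with DMSO, and 4230, 2880 and 3190 in U87 MG with STM2457, against 2470, 1730 and 1280 with DMSO. In LN229-R it had 2220, 5310 and 1890 with STM2457, against 152, 312 and 143 with DMSO, and in LN229 4580, 6850 and 3580, against 710, 459 and 728.

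DNA repair genes, which bear on temozolomide, gave no call. MGMT was not in the LN229 table, so no pooled difference exists for it. In U87-R it had 739, 724 and 477 normalized counts with STM2457, against 1548, 1557 and 877 with DMSO, and in LN229-R 169, 191 and 165 with STM2457, against 205, 194 and 188 with DMSO; in U87 MG it lay between 0 and 1.86. ALKBH2, a DNA demethylase, differed by 0.21 (-0.09 to 0.52) and ALKBH3, a related enzyme, by 0.08 (-0.21 to 0.37). Of 8 mismatch repair genes none was called, with PMS2 at 0.18 (-0.07 to 0.42). Of 20 base excision repair genes the glycosylase gene SMUG1 had the lowest unadjusted p (0.31, 0.07 to 0.55), and of 30 homologous recombination and Fanconi anemia genes FANCG did (0.49, SE 0.24).

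Hypoxia and glycolysis genes fell in the U87 lines, 29 of 35 in U87-R and 22 in U87 MG, where 8.4% and 7.3% of all genes fell. In LN229-R 12 rose and in LN229 11, where 23.2% and 22% of all genes rose. The median pooled difference was -0.084, and 18 of 35 members (51.4%) had a lower effect in the resistant line of both families, against 23.7% of all genes. Without the LN229-family libraries numbered 2 the pooled median was -0.0184, and the median in the LN229 family was 0.118 in place of -0.0513. VEGFA, the angiogenic growth factor, had 14400, 12600 and 15400 normalized counts in U87-R with STM2457, against 26000, 23300 and 27500 with DMSO, and 14800, 17400 and 15900 in U87 MG with STM2457, against 23900, 27500 and 18600 with DMSO. Its pooled difference was -0.26 (95% interval -0.80 to 0.28). The oxygen sensor gene EGLN1 differed by -0.34 (-0.61 to -0.07) and the hexokinase gene HK2 by -0.37 (-0.67 to -0.06). ALDOC, an aldolase, went the other way at 0.46 (0.10 to 0.83).

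Of 61 cytosolic ribosomal protein genes 44 fell in LN229-R and 17 in LN229, where 20% and 18.3% of all genes fell. A lower effect in the resistant line of both families was seen for 47 (77%), against 23.7% of all genes. The median was -0.118 and the intervals of all 61 lay within 1. Without single libraries that median ran from -0.193 to 0.0115, and without the LN229-family libraries numbered 2 it was -0.0488. With exchanged LN229 names it was 0.05. Median effects in LN229-R and LN229 were -0.472 and -0.282 with all libraries, and -0.124 and -0.0957 without those numbered 2. The larger fall in LN229-R thus depended on these libraries. The 40 nuclear genes of oxidative phosphorylation (median -0.0288), the 13 mitochondrially encoded mRNAs (0.0149) and the 26 genes of the unfolded protein response (-0.0609) were close to 0; the chaperone gene HSP90B1 differed by -0.33 (SE 0.15).

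Matrix genes gave the lowest adjusted p of the lists. TIMP3, an inhibitor of matrix metalloproteinases, had a pooled difference of -0.68 (95% interval -1.07 to -0.29, limma adjusted p = 0.756). It had 377, 363 and 344 normalized counts in U87-R with STM2457, against 2310, 2670 and 3780 with DMSO, and 3330, 2620 and 1600 in U87 MG with STM2457, against 10400, 9830 and 9610 with DMSO. In LN229-R it had 19600, 18200 and 18000 with STM2457, against 33200, 29700 and 36000 with DMSO, and in LN229 16100, 11800 and 13100, against 17900, 17200 and 18500. Each STM2457 group lay below its DMSO group, and the fall was called in U87-R, U87 MG and LN229-R.

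Of 27 collagen genes none was called in the pooled difference. COL16A1 differed by 0.41 (0.14 to 0.67) and COL5A3 by 0.98 (0.33 to 1.63), both with a limma adjusted p of 0.968. COL1A2, a chain of collagen I, fell by 1.97 in U87-R and fell by 2.64 in U87 MG, and its pooled difference was -0.50 (-1.71 to 0.70). In the IGF list the binding protein gene IGFBP7 differed by 0.59 (0.19 to 1.00), with 14500, 10600 and 17600 normalized counts in LN229-R with STM2457, against 6050, 6810 and 7390 with DMSO, and 14200, 8980 and 11300 in LN229 with STM2457, against 9140, 7450 and 7710 with DMSO. The LN229-R groups did not overlap and the LN229 groups did.

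The transcription factor gene MYC differed by 0.55 (95% interval 0.18 to 0.92, limma adjusted p = 0.968), with the difference in the LN229 family (1.14) and not in the U87 family (-0.04). It had 864, 682 and 835 normalized counts in LN229-R with STM2457, against 257, 241 and 353 with DMSO, and 663, 450 and 760 in LN229 with STM2457, against 467, 434 and 541 with DMSO. The transporter gene ABCC3, which NRF2 also raises, differed by 0.90 (0.37 to 1.42, limma adjusted p = 0.803), again mostly in the LN229 family (1.43). ABCC3 had 510, 502 and 549 in LN229-R with STM2457, against 129, 72.3 and 189 with DMSO, and 2950, 2240 and 1570 in LN229 with STM2457, against 1900, 1040 and 1310 with DMSO. Without the LN229-family libraries numbered 2 the median of the 28 NRF2 and glutathione genes was 0.233 in place of 0.088.

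Among genes of glial identity CHI3L1, a secreted lectin of mesenchymal glioma, differed by -2.21 (95% interval -3.53 to -0.88, limma adjusted p = 0.854). It had 10.8, 6.15 and 3.85 normalized counts in LN229-R with STM2457, against 1.78, 8.59 and 0 with DMSO, and 1690, 325 and 692 in LN229 with STM2457, against 41.9, 9.61 and 18.4 with DMSO. In the U87 family it had 4250 to 9570 with STM2457 and 4920 to 15700 with DMSO. The lines lacked or barely had several defining glial genes. AQP4 was listed in none of the 4 tables, GFAP averaged 2.54 to 82.7 in the 8 groups, and SOX10 was listed in the LN229 family alone, with group means of 35150 to 50170. Of 7 microglia and macrophage markers only CD68 could be tested, at 0.07 (-0.64 to 0.78), and of 5 endothelial markers 3 could, none of them called. Their part in the results was not tested.

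The strength of the response, read over genes changed in the other family, had close medians in resistant and parental lines. The mean effects used for the choice came from the libraries of the other family. The spread estimate behind the choice was shared by all 24 libraries. Over the 4619 genes that rose in the LN229 family the median effect was 0.257 in U87-R and 0.241 in U87 MG, and over the 4456 that fell it was -0.188 and -0.186. Over the 2820 genes that rose in the U87 family the median was 0.515 in LN229-R and 0.524 in LN229, and over the 2440 that fell it was -0.328 and -0.323. The larger absolute effect, whatever its sign, was in the resistant line for 54.9% and 50.5% of the genes in the U87 family. In the LN229 family the shares were 54.2% and 56.9%.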

How the data were processed

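The 24 libraries come as 4 tables of 6, 1 per line, of normalized counts, a signal per gene that the authors deposited after scaling each table separately; whole reads could not be recovered, so depth behind single values is unknown. The submitters' processing notes name Trimmomatic 0.39, STAR 2.7.11a, Salmon 1.4.0, DESeq2 and GRCh38, with no role. Columns were matched to samples by name, and there were 0 other columns of per-sample values.

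Values were taken as log2(value + 1), and genes with a mean under 10 over the 24 columns were left out. One limma-trend model (limma 3.58.1, R 4.3.3) was fitted over the 8 groups of 3 with 16 residual degrees of freedom, and p-values were adjusted by Benjamini-Hochberg over all 15709 genes. Intervals are 95% intervals from that fit. Effects were formed within a table, so scaling between tables does not enter them; levels set across tables carry it. The fit was tested on simulated data.

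The genes and lists were chosen with earlier results of these data known. Named genes were called genes with a mean of at least 100 and the largest differences, a panel of 14 genes, and up to 4 genes per list by lowest p; exceptions are stated. Alternatives were the pseudocount, the filter, scaling, the variance trend, library weights, a replicate block, exchanged LN229 names, a stricter threshold, separate fits and leaving out each library. Some were added after seeing the data: summing the 5.8S copies and leaving out the LN229-family libraries numbered 2. Promoters are from RefSeq (GRCh38.p14) and the 5.8S sequence and gene positions from GENCODE. No protein sequences were used here. Some genes are not reported here.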

Additional observations from a re-analysis of the deposited data

Results flagged for a closer look

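Several genes stood out because the difference between the STM2457 effects of resistant and parental cells passed the limma test itself. MEGF6 did so in the pooled difference, at 2.36, and RNA5-8SN2 at -6.81. RNA5-8SN2 also did so in the LN229 family, at -14, and between the families, at 14.4; these values rest on libraries listed at 0 and on 1 of 3 identical copies.

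In the U87 family the difference passed for AMIGO3 at -8.77, for ANKRD45 at -3.46 and for ADAMTS15 at -2.9. AMIGO3 and ANKRD45 had libraries listed at 0, and ADAMTS15 had at most 1.2 normalized counts in U87 MG. The causes were not tested.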

How the results depend on the processing

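With a pseudocount of 0.5, limma called 6 genes in the U87 family and 5 in the LN229 family; with 5 it called 1 pooled, 1 in the U87 family and 4 in the LN229 family. A mean of at least 50 gave 1 pooled and 1 in the U87 family, equal totals 2 in the LN229 family, no variance trend 5 in the U87 family, and library weights 6 in the LN229 family. At an adjusted p under 0.01 there were 1 pooled and 0 in the U87 family, and a separate fit of the U87 family gave 0. With the 5.8S copies summed the counts were 0 pooled, 0 in the LN229 family and 0 between families. Without the LN229-family libraries numbered 2 they were 9 pooled, 0 in the U87 family, 30 in the LN229 family and 12 between families. With LN229 names exchanged 1 gene was called pooled and 2 between families; MEGF6 turned to -0.13 and RNA5-8SN2 to 7.21. Restricting the strength comparison to mean effects of at least 1 moved the median of U87-R minus U87 MG to 0.0615 and 0.0707 over genes that rose and fell in the LN229 family, and that of LN229-R minus LN229 to 0.0238 over genes that fell in the U87 family. The causes were not tested.

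Without single libraries the counts ran from 1 to 4 pooled, 0 to 12 in the U87 family, 1 to 17 in the LN229 family, 1 to 3 between families, and 1851 to 3042 for the STM2457 effect in U87 MG. The replicate block gave 4 pooled, 6 in the U87 family, 30 in the LN229 family, 6 between families and 4294 for the effect in U87 MG. AMIGO3 and CYP26B1 joined MEGF6 and RNA5-8SN2 in the pooled difference under the block, and the LN229-family calls then included MEGF6, MYC, NUPR1, CHI3L1, NOTCH3, CEBPD, CYP26B1 and SPOCK1. Like-numbered DMSO and STM2457 libraries of a line deviated together with correlations of 0.0415 to 0.312, over 0.1 in 6 of 12 pairs. Of the DMSO libraries, 10 of 12 were closest to their own number. Whether the numbers pair the samples is not settled. The main fit left them unpaired, and the counts depend on that choice. The counts under the block had been seen before these correlations. Of the list medians, 474 values stayed within the spread and 10 moved beyond it. These medians were not tested, so none carries a call. Some changed sign with exchanged LN229 names, as that of cholesterol synthesis and uptake did (0.249 and -0.011). Others kept it, as that of the ATF4 targets did (0.31 and 0.098). With 3 libraries per group, differences under about 1 log2 unit could not be told from 0 for many genes of low level.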
